A study of Mus musculus with 14 samples.

Results

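The transcripts of IGF1, its receptor and the IGF-binding proteins were followed in cultured endosteal stromal cell clones with and without p53. The members are 8 genes, picked by symbol: Igf1, Igf1r, Igfbp2, Igfbp3, Igfbp4, Igfbp5, Igfbp6 and Igfbp7. They are 8 of the 30503 genes counted, and all 8 were among the 17358 genes with enough reads to be tested. Bulk RNA-seq was made from 14 clones, each grown in culture from a tdTomato+ bone marrow stromal cell of the mouse. All mice carried the Fgfr3-creER transgene, which drives a tamoxifen-dependent Cre recombinase in cells with Fgfr3 promoter activity, and the R26R-tdTomato reporter, and all received tamoxifen at P21. The 5 Fgfr3-WT (P23) clones were isolated at postnatal day 23 and sequenced at passage 8. The Fgfr3-p53 cKO clones came from mice that also carried Trp53 fl/fl alleles, so that the pulse deleted p53 in the labelled cells. Of these, 5 were isolated at postnatal day 28 (P28, passage 8) and 4 at 4 months (P4M, passages 6 to 8). Genotype, age at isolation and library submission change together between the Fgfr3-WT and cKO clones. All Fgfr3-WT libraries carry submission number 1303 and all cKO libraries 2963. The paper also reports that cKO clones grew faster in culture than wild-type clones and that more of them survived repeated passage. Equal passage therefore does not mean equal time in culture or an equal share of surviving clones. The effects of all these factors cannot be told apart. The labels do not say which clones came from the same mouse, so the p-values measure the spread between these clones only.

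IGF1 is a secreted growth factor that acts on bone cells both from the circulation, where it comes mostly from the liver under growth hormone, and locally, where skeletal cells make it themselves. It signals through IGF1R, a receptor tyrosine kinase that engages the insulin receptor substrates and the PI3K, AKT and mTOR pathway. IGF-binding proteins are secreted carriers that hold IGF1 and IGF2 away from the receptor or release them near it after cleavage by proteases such as pappalysin, and several of them also act without IGF. IGFBP7 is a distant relative that binds IGFs weakly.

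The genes lie at separate places in the mouse genome except for a pair of neighbours. Positions follow GENCODE M21 on the mm10 build. Igf1 (ENSMUSG00000020053) lies at chr10:87858265-87937042 on the plus strand and Igf1r (ENSMUSG00000005533) at chr7:67952827-68233668 on the plus strand. Igfbp2 (ENSMUSG00000039323, chr1:72824503-72852474, plus strand) and Igfbp5 (ENSMUSG00000026185, chr1:72857932-72874884, minus strand) stand tail to tail with 5457 bases between them. Igfbp3 (ENSMUSG00000020427) lies at chr11:7206086-7213923 on the minus strand, and Igfbp4 (ENSMUSG00000017493) at chr11:99041244-99054392 on the plus strand. Igfbp6 (ENSMUSG00000023046) lies at chr15:102144362-102149511 on the plus strand and Igfbp7 (ENSMUSG00000036256) at chr5:77349240-77408041 on the minus strand. All are protein-coding. An antisense gene, Igf1os, overlaps 5117 bases of Igf1, and Polr2b, which encodes a subunit of RNA polymerase II, overlaps the last 85 bases of Igfbp7 from the opposite strand. Without strand information, reads within such an overlap cannot be told apart. The deposited TPM (a read share corrected for gene length and scaled to a fixed total) of Igf1os was at most 0.25 in any clone, and that of Polr2b lay between 17.3 and 45.6.

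The promoters of Igf1r, Igfbp2 and Igfbp6 are shown because these are the 3 members called higher in the cKO clones as a whole. Igfbp2 and Igfbp6 had enough reads to be tested through the cKO clones alone, so a difference was built into their calls. Each line gives the 150 bases before the RefSeq start site (GRCm38.p6), read 5′ to 3′ on the gene's strand, with capitals on motif matches. The windows are chr7:67952107-67952256 for Igf1r, chr1:72824330-72824479 for Igfbp2 and chr15:102144036-102144185 for Igfbp6, and none of their bases lies in an exon of its gene in GENCODE M21. The 2 annotations place the starts differently. GENCODE M21 starts Igf1r at 67952827, Igfbp2 at 72824503 and Igfbp6 at 102144362, each beyond the end of its window. Motif distances below are from the RefSeq start only.
Igf1r: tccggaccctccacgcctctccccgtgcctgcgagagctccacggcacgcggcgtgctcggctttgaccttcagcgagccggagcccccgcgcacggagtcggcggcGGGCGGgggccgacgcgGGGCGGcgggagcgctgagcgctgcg
Igfbp2: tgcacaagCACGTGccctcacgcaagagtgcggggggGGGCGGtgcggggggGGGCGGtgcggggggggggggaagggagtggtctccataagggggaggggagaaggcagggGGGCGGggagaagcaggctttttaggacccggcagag
Igfbp6: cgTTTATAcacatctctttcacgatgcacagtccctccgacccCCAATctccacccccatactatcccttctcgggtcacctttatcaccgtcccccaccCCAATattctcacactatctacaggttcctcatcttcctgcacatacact
The motifs searched on both strands were the GC box GGGCGG, the CCAAT box, the TATA box TATAAA, the E-box CACGTG and the 10-base p53 element by its consensus. The motif of Igf1r was the GC box, found at 2 places that start 43 and 26 bases before the start site. Igfbp2 held 3 GC boxes and an E-box, and Igfbp6 held 2 CCAAT boxes and a TATA box on the opposite strand, 148 bases out. Of the 32851 promoters in the RefSeq table, 32.7% held a GC box, 33.8% a CCAAT box, 12.4% a TATA box, 6.02% the E-box and 7.13% the p53 element in the 250 bases before the start site. No member had a match to the p53 element consensus there, which says only that these letters are not in this window. The G and C content of the same 250 bases was 77.6% for Igf1r, 67.2% for Igfbp2 and 49.6% for Igfbp6, where all promoters had a median of 52.4% (quartiles 45.2% and 61.2%). RefSeq gives Igfbp2 a second start site, whose 250 bases upstream (chr1:72825137-72825386, 65 of them in exons) had a G and C content of 56.4% and none of the motifs; the Igfbp2 values above are for the first.

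Libraries held 25688946 to 38958693 counts in the Fgfr3-WT group, 37606033 to 48648618 in the P28 group and 43757832 to 52857424 in the P4M group. Trp53, the deleted gene, fell in the cKO clones as a whole by 4.59 on the log2 scale (SE 0.12, adjusted p = 7.46e-11, edgeR quasi-likelihood test with Benjamini-Hochberg adjustment), with 49.9 to 68.2 CPM (counts scaled to a fixed total after TMM normalization) in the Fgfr3-WT libraries and 1.72 to 2.84 CPM in every cKO library. All 7 mesenchymal skeletal markers were above 1 TPM in some clone of every group, except that Thy1 was at or below 1 TPM in every P4M clone. In the Fgfr3-WT clones the median was 0.18 TPM for Col1a2 and 0.42 TPM for Thy1. Col1a2 was at least 3435 TPM in the P28 clones and 2181 TPM in the P4M clones. Of 6 haematopoietic and macrophage markers, 4 were at or below 1 TPM in all clones, and 5 of 6 endothelial markers were as well. The others were Cd68, Lyz2 and, among endothelial markers, Kdr. Cd68 was 5.46 to 66 TPM in the Fgfr3-WT, 1.67 to 3.77 TPM in the P28 and 2.12 to 9.13 TPM in the P4M clones. Lyz2 was 16.8 to 98.6, 2.33 to 30.4 and 1.8 to 9.65 TPM in the same order. Kdr was at most 0.12, 1.12 and 3.12 TPM. In all cKO against Fgfr3-WT clones, edgeR called Cd68 and Lyz2 lower. It called Kdr higher, and also Csf1r, a listed macrophage marker at or below 1 TPM. The summed TPM of 6 osteoblast markers was 18.7 to 449 in the Fgfr3-WT clones, 4104 to 7138 in the P28 clones and 3818 to 16690 in the P4M clones, and that of 6 chondrocyte markers was 222 to 5787, 69.2 to 712 and 9.86 to 17.6. Single genes weigh heavily in these sums. Col2a1 alone reached 5426 TPM in the Fgfr3-WT clones, and Col1a1 was 4023 to 6206 TPM in the P28 clones. In P28 against Fgfr3-WT, edgeR called 4 of the 6 chondrocyte markers lower but Matn3 higher (log2 fold change 2.38, adjusted p = 0.0304). Matn3 was at most 1.28 TPM in the P28 clones. Comp also stood higher there, at 1.34, without passing (adjusted p = 0.381, edgeR). Most of these markers of cell state differed with genotype, and their part in the differences described here was not tested. In bulk RNA, fewer cells of a kind and less RNA per cell cannot be told apart. The P28 clones fell into a set of 3 and a set of 2 by their whole transcriptomes. The chi-square per degree of freedom over all gene counts was 64.8 to 128 between clones 1, 2 and 3 and 84.6 between clones 4 and 5, and it was 214 to 252 between a clone of the first set and one of the other.

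IGF-binding protein transcripts were far more abundant than those of the ligand in most clones, and Igfbp7 and Igfbp4 made up most of them. On the TPM scale, the Fgfr3-WT clones had a summed level of the 6 IGF-binding protein members of 191, 547, 225, 511 and 173. The sum was 1073, 823, 1538, 776 and 376 TPM in the P28 clones, and 354, 279, 715 and 369 TPM in the P4M clones. The highest sums were in P28 clones 1 and 3, and the ranges of all 3 groups overlapped. Igfbp7 and Igfbp4 together held 63.8% to 99.6% of the sum in the Fgfr3-WT clones, 69.6% to 97.8% in the P28 clones and 94.3% to 98.9% in the P4M clones. Igfbp7 was the most abundant of the 6 in 4 of 5 Fgfr3-WT, 3 of 5 P28 and 4 of 4 P4M clones, and Igfbp4 was in the others. Another member held over 10% of the sum in 4 clones. Igfbp5 held 36.1% in Fgfr3-WT clone 4, Igfbp3 held 11.7% in Fgfr3-WT clone 5, and Igfbp6 held 16.2% and 25.1% in P28 clones 1 and 3.

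**Figure D1:**
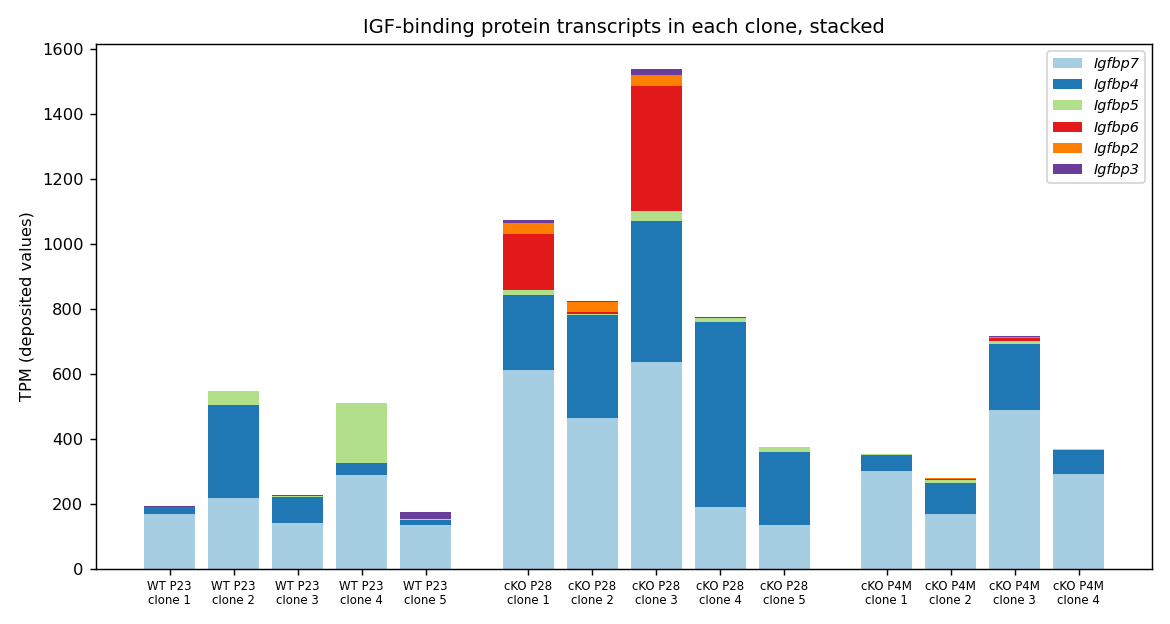
Stacked bars give the deposited TPM of the 6 IGF-binding protein members in each of the 14 clones, on a linear axis from 0, with clones grouped as Fgfr3-WT (P23), Fgfr3-p53 cKO (P28) and Fgfr3-p53 cKO (P4M). Igfbp7 and Igfbp4 fill most of each bar, Igfbp6 adds a visible part in P28 clones 1 and 3, and the tallest bar is P28 clone 3 at 1538 TPM.

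Ranked by mean TPM, the order in the Fgfr3-WT clones was Igfbp7 (189 ± 63.4), Igfbp4 (88.8 ± 114), Igfbp5 (46.6 ± 79.0), Igf1r (9.06 ± 2.07), Igfbp3 (4.34 ± 8.87), Igf1 (1.81 ± 1.86), Igfbp6 (0.27 ± 0.082) and Igfbp2 (0.052 ± 0.12), with SD over 5 clones. The ranges of every pair of neighbours in that order overlapped. In the P28 clones Igfbp6 and Igf1 stood in the third and the fourth place, with mean levels of 114 ± 169 and 40.5 ± 47.5 TPM (SD, n = 5), and again every neighbouring pair overlapped. In the P4M clones Igf1 was last, at 0.51 ± 0.69 TPM (SD, n = 4), and only the steps from Igfbp4 to Igf1r and from Igf1r to Igfbp5 were free of overlap. Igf1r had the smallest SD relative to its mean in each group.

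Igf1 was high in 3 of the 5 P28 clones and at 1.52 CPM or less in the P4M clones. Its level, in CPM, was 0.163, 7.42, 0.485, 3.41 and 2.10 in Fgfr3-WT clones 1 to 5. It was 179.9, 27.4, 156, 4.01 and 2.43 CPM in P28 clones 1 to 5, and 0.208, 0.0683, 0.277 and 1.52 CPM in P4M clones 1 to 4. P28 clones 1, 2 and 3 were above every other clone, P28 clones 4 and 5 lay within the Fgfr3-WT range, and all P4M clones were below all P28 clones. P28 against Fgfr3-WT gave a fitted log2 fold change of 4.77 (adjusted p = 0.0133, SE 1.34, edgeR quasi-likelihood test with Benjamini-Hochberg adjustment over all genes tested). For P4M against P28 it was -7.12 (SE 1.67, adjusted p = 0.0254, edgeR), and leaving out P28 clone 1 or 3 or P4M clone 1, 2 or 3 ended this call, 5 of 14 such fits, with adjusted p up to 0.075. P4M against Fgfr3-WT gave -2.36 (SE 1.37, adjusted p = 0.177, edgeR) and the cKO clones as a whole gave 1.20 (SE 1.10, adjusted p = 0.388, edgeR), neither of which passed. These fitted values follow group means, which the highest clones set.

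Igf1r, the receptor, rose in both cKO groups by a similar and small amount. Its level was 61.3, 55.5, 66.2, 82.6 and 98.3 CPM in the Fgfr3-WT clones, and 122.7, 120.9, 119.2, 116.6 and 82.2 CPM in the P28 clones. The P4M clones had 114.3, 132.5, 91.5 and 101.4 CPM. All cKO clones except P28 clone 5 and P4M clone 3 were above every Fgfr3-WT clone, so the groups overlapped at those clones only. Against Fgfr3-WT clones, its log2 fold change reached 0.63 (SE 0.17, adjusted p = 0.0125, edgeR) in P28, 0.60 (SE 0.18, adjusted p = 0.0178, edgeR) in P4M and 0.61 (SE 0.16, adjusted p = 0.00607, edgeR) in all cKO clones. The P4M call was lost without P4M clone 2 (adjusted p = 0.0591). Between P4M and P28 the value was -0.03 (SE 0.18, adjusted p = 0.936, edgeR). With counts of 1450 to 5995 per clone, Igf1r was measured with little counting error.

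**Figure D2:**
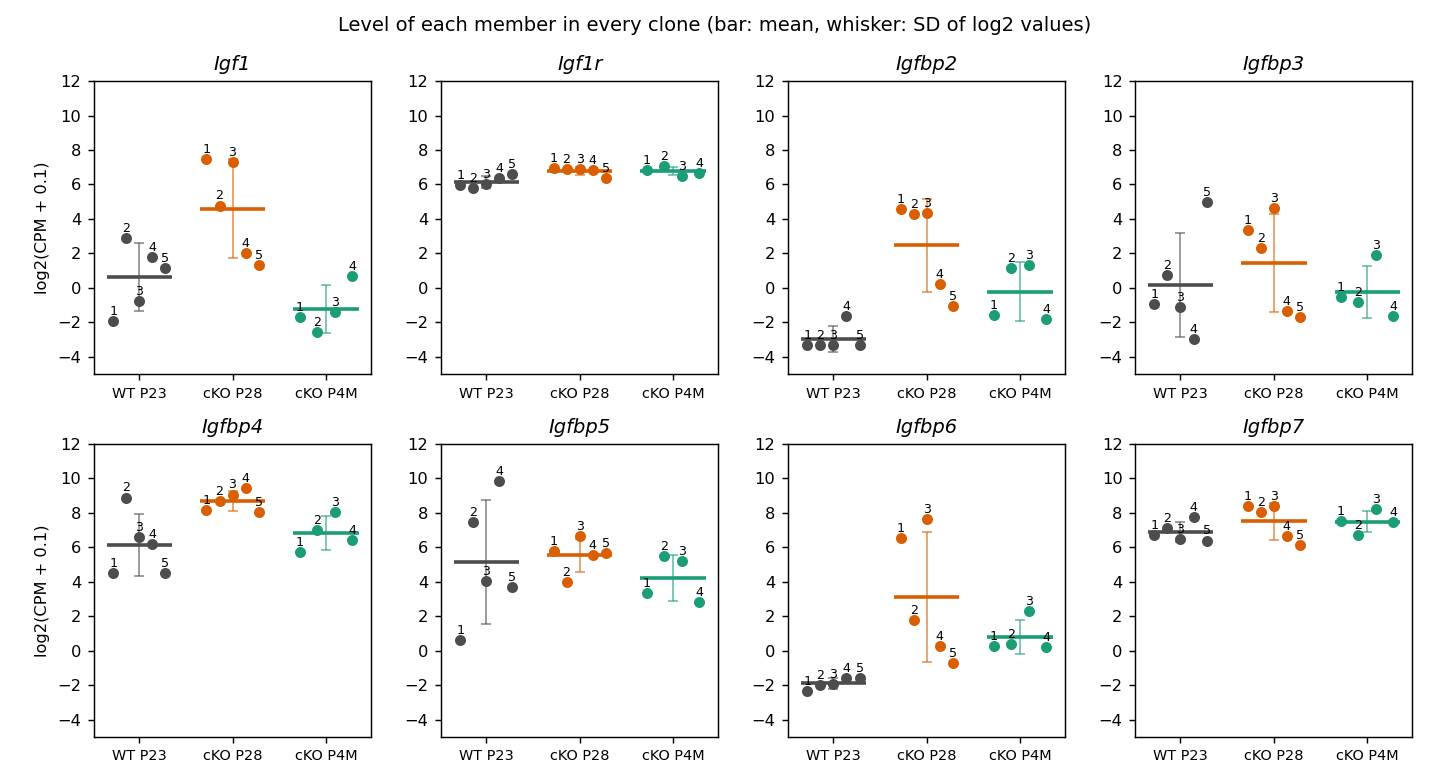
Each panel shows a member's level in the 14 clones as log2(CPM + 0.1), with points numbered by clone, a bar at the group mean and a whisker of 1 SD of the log2 values (n = 5, 5 and 4). Igf1, Igfbp2, Igfbp3 and Igfbp6 are highest or nearly so in P28 clones 1 to 3, while Igf1r spans a narrow range from 55.5 to 132.5 CPM.

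Igfbp2 and Igfbp6 were nearly absent from the Fgfr3-WT clones and had reads in every cKO clone. In P4M clones 1 and 4 Igfbp2 was nearly absent too, at 0.231 and 0.188 CPM. Both genes entered the test through the cKO clones alone, since no Fgfr3-WT clone reached the filter level of 0.241 CPM. A difference was thus built into their passing, and their calls do not add to a count of members. Igfbp2, a carrier found in serum and in many tissues, had no read in 4 of 5 Fgfr3-WT clones, which allows up to 0.0977 to 0.121 CPM at 3 counts, and 8 reads (0.228 CPM) in clone 4. The P28 clones had 23.6, 19.7, 20.4, 1.05 and 0.384 CPM, and the P4M clones had 0.231, 2.16, 2.39 and 0.188 CPM. P28 clones 1, 2 and 3 stood apart at 19.7 to 23.6 CPM, P4M clone 4 lay within the Fgfr3-WT range, and no P28 clone did. Fitted log2 fold changes were 7.88 (SE 1.56, adjusted p = 0.00181, edgeR) for P28, 4.50 (SE 1.46, adjusted p = 0.0229, edgeR) for P4M and 6.19 (SE 1.45, adjusted p = 0.0034, edgeR) for all cKO against Fgfr3-WT clones. Their size rests on the 8 reads of a single Fgfr3-WT clone, and without it the P28 value became 12.04. The P4M call was lost without P4M clone 2 (adjusted p = 0.0508) or 3 (adjusted p = 0.0543), and by limma on log2(TPM + 1) (1.12, adjusted p = 0.318). P4M against P28 gave -3.39 (SE 1.31, adjusted p = 0.124, edgeR), which did not pass, but it did by DESeq2 (adjusted p = 0.0454).

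Igfbp6, which prefers IGF2 over IGF1, had 0.0977, 0.153, 0.162, 0.228 and 0.237 CPM in the Fgfr3-WT clones, or 3 to 8 reads each. Its level was 93.4, 3.37, 200.7, 1.11 and 0.512 CPM in the P28 clones and 1.08, 1.21, 4.72 and 1.07 CPM in the P4M clones. Every cKO clone was above every Fgfr3-WT clone, and P28 clones 1 and 3 were far above the rest. Its log2 fold changes were 8.39 (SE 1.68, adjusted p = 0.00192, edgeR) for P28 and 5.94 (SE 1.51, adjusted p = 0.00565, edgeR) for all cKO against Fgfr3-WT clones. P4M against Fgfr3-WT gave 3.50 (SE 1.50, adjusted p = 0.0721, edgeR) and did not pass, although its ranges did not overlap; it passed when only these 2 groups were fitted (adjusted p = 0.00196), by DESeq2 (adjusted p = 0.00754) and without P28 clone 3, 4 or 5 (adjusted p = 0.0391 to 0.0467). P4M against P28 gave -4.88 (SE 1.51, adjusted p = 0.0651, edgeR), and this passed without P28 clone 5 (adjusted p = 0.0343) and by DESeq2 (adjusted p = 0.000566).

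Igfbp3, the main carrier of IGFs in the circulation, varied from clone to clone more than between groups. The Fgfr3-WT clones had 0.424, 1.61, 0.364, 0.0285 and 31.5 CPM, the P28 clones 10.3, 4.92, 25.0, 0.302 and 0.205 CPM, and the P4M clones 0.600, 0.478, 3.59 and 0.226 CPM. Fgfr3-WT clone 5 was the highest of all 14, and the groups overlapped throughout. No comparison passed, with log2 fold changes of 0.26 (SE 1.51, adjusted p = 0.906, edgeR) for P28, -2.46 (SE 1.74, adjusted p = 0.265, edgeR) for P4M and -1.10 (SE 1.31, adjusted p = 0.511, edgeR) for all cKO against Fgfr3-WT clones. Without Fgfr3-WT clone 5 these values became 3.75, 1.03 and 2.39, and none of them passed. P4M against P28 gave -2.73 (SE 1.76, adjusted p = 0.351, edgeR).

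Igfbp4, which holds IGFs until pappalysin cleaves it, was abundant in every clone. Its level was 22.4, 471, 97.2, 73.0 and 22.2 CPM in the Fgfr3-WT clones, and 282, 408, 531, 687 and 265 CPM in the P28 clones. The P4M clones had 52.9, 127, 268 and 86.7 CPM. All P28 clones were above 4 of the 5 Fgfr3-WT clones, and Fgfr3-WT clone 2 lay in the middle of the P28 range. On the log2 scale P28 against Fgfr3-WT gave 1.66 (SE 0.76, adjusted p = 0.1, edgeR), which did not pass but did without Fgfr3-WT clone 2 (3.01, adjusted p = 0.00277) and by limma on log2(TPM + 1) with all clones (2.71, adjusted p = 0.00478). P4M against Fgfr3-WT gave -0.04 (SE 0.79, adjusted p = 0.974, edgeR), P4M against P28 gave -1.70 (SE 0.83, adjusted p = 0.213, edgeR) and all cKO against Fgfr3-WT gave 0.81 (SE 0.68, adjusted p = 0.342, edgeR). The last value also passed without Fgfr3-WT clone 2, at 2.16 (adjusted p = 0.00731), and by limma, at 1.79 (adjusted p = 0.0203). P4M against P28 passed when only these groups were fitted (adjusted p = 0.0429, edgeR).

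Igfbp5, a carrier that binds bone matrix, had the widest ratio of highest to lowest Fgfr3-WT clone after Igfbp3, among the members with a read in every Fgfr3-WT clone. The Fgfr3-WT clones had 1.43, 177, 16.6, 911 and 12.8 CPM, the P28 clones 55.4, 15.9, 101, 46.6 and 50.6 CPM, and the P4M clones 9.99, 44.9, 37.0 and 6.92 CPM. All cKO clones lay inside the Fgfr3-WT range, which covered 636-fold. On the log2 scale the cKO clones as a whole stood at -2.62 (SE 1.03, adjusted p = 0.0489, edgeR), just past the threshold. Of the 14 fits with a clone left out, 11 ended that call, and without Fgfr3-WT clone 4 the value was -0.51 (adjusted p = 0.668). P28 (-2.05, SE 1.23, adjusted p = 0.203, edgeR) and P4M (-3.18, SE 1.41, adjusted p = 0.0799, edgeR) against Fgfr3-WT did not pass alone in edgeR. The P4M difference passed by DESeq2 (-3.13, adjusted p = 0.0152) and by edgeR without Fgfr3-WT clone 1 (-3.48, adjusted p = 0.031). P4M against P28 gave -1.13 (SE 1.29, adjusted p = 0.623, edgeR).

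Igfbp7, the most abundant member, showed no difference that passed. Its level was 103, 139, 88.9, 215 and 83.6 CPM in the Fgfr3-WT clones, 330.5, 259, 331, 98.6 and 68.9 CPM in the P28 clones, and 180.5, 104, 294 and 175 CPM in the P4M clones. P28 clones 1, 2 and 3 were above all Fgfr3-WT clones, whereas P28 clone 5 was the lowest of all 14. The log2 fold changes were 0.79 (SE 0.44, adjusted p = 0.174, edgeR) for P28, 0.58 (SE 0.47, adjusted p = 0.325, edgeR) for P4M and 0.69 (SE 0.40, adjusted p = 0.172, edgeR) for all cKO against Fgfr3-WT clones. P4M against P28 gave -0.21 (SE 0.47, adjusted p = 0.823, edgeR).

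**Figure D3:**
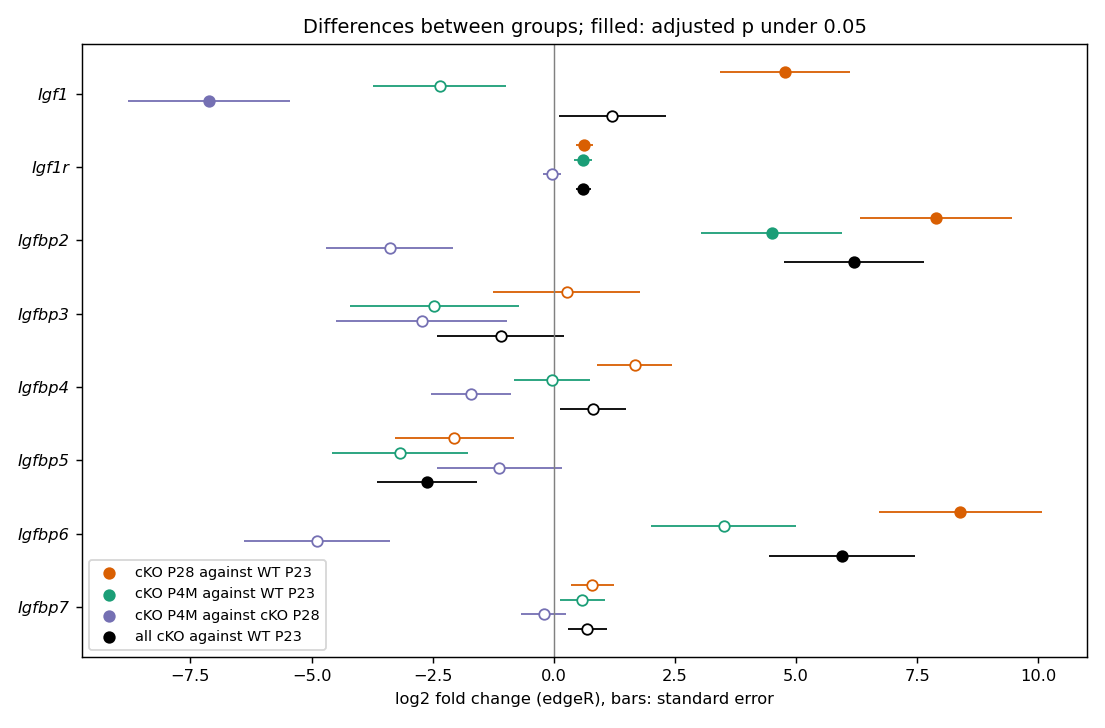
Points are log2 fold changes from edgeR for the 8 members in 4 comparisons, with bars of 1 standard error; filled points passed an adjusted p of 0.05. Igf1 lies at 4.77 for P28 against Fgfr3-WT and at -7.12 for P4M against P28, the values of Igf1r against Fgfr3-WT lie between 0.60 and 0.63, and Igfbp3, Igfbp4 and Igfbp7 have no filled point.

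Igfbp2 and Igfbp6 had passed the filter through the cKO clones alone, so counts are given over the other 6 members. In P28 against Fgfr3-WT 2 of these 6 were called, Igf1 and Igf1r, both higher, where 38.9% of all genes tested were called (19.2% higher and 19.7% lower). In P4M against Fgfr3-WT 1 was called, Igf1r, beside 45.9% of all genes (22.3% higher and 23.6% lower). P4M against P28 called Igf1 as lower, where 7.22% of all genes were called (3.34% higher and 3.88% lower). For all cKO against Fgfr3-WT clones Igf1r was called higher and Igfbp5 lower, beside 48.8% of all genes (23.1% higher and 25.7% lower). The test for any difference among the 3 groups called Igf1 and Igf1r of the 6, where it called 50.6% of all genes. All genes tested still include Igfbp2, Igfbp6 and any others that passed the filter through the cKO clones alone. The shares of all genes are therefore no strict standard for the 6, and no conclusion is drawn from them. The P28 and P4M comparisons share the Fgfr3-WT clones. The median log2 fold change of the 6 was 0.71 in P28, -1.20 in P4M and 0.65 in all cKO against Fgfr3-WT, with -1.41 between P4M and P28, where the median of all genes lay at -0.02, -0.06, -0.05 and -0.01. The CPM ranges of all 6 overlapped between P28 and Fgfr3-WT, between P4M and Fgfr3-WT and between all cKO and Fgfr3-WT clones, where 24.5%, 33.6% and 18.1% of all genes had ranges without overlap. Between P4M and P28 the ranges of Igf1 did not overlap, beside 19.0% of all genes.

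Within the P28 group, 6 members went together by clone. Igf1, Igf1r, Igfbp2, Igfbp3, Igfbp6 and Igfbp7 were each higher in clones 1, 2 and 3 than in clones 4 and 5, the same split as in the whole transcriptomes, while Igfbp4 and Igfbp5 did not follow it. For Igf1r the gap was small, from 119.2 CPM in clone 3 to 116.6 CPM in clone 4. The share of all genes that follow this split was not computed, so the count of 6 is not a result about the members. Sp7, which encodes the osteoblast transcription factor osterix, was low in the first 3 clones (3.38, 9.78 and 5.47 CPM) and high in the other 2 (293 and 289 CPM). Bglap, the osteocalcin gene, was at 0.495, 0.167 and 0.378 CPM in clones 1 to 3 and at 93.8 and 102 CPM in clones 4 and 5. Of the other 4 osteoblast markers, Runx2, Alpl and Ibsp were also lower in clones 1 to 3, and Col1a1 did not follow the split, with 14742 to 22012 CPM in clones 1 to 3 and 14680 and 17270 CPM in clones 4 and 5. Runx2 differed least of those that followed it, at 86.3 to 101 CPM against 141 and 150.45 CPM. The P4M clones, in which Igf1 was 0.0683 to 1.52 CPM, had 132 to 666 CPM of Sp7 and 138 to 290 CPM of Bglap. Fgfr3-WT clones 1 to 4 had at most 0.191 CPM of Sp7, and their Igf1 level was at most 7.42 CPM, whereas Fgfr3-WT clone 5 had 38.7 CPM of Sp7 and 2.10 CPM of Igf1. These values are given as a description, since the clones, and Sp7 and Bglap among the markers, were set side by side after their levels were seen.

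Over the 14 clones, with log2 CPM centred within each group, Igfbp7 correlated with Igfbp2 (r = 0.781), Igfbp6 (r = 0.772) and Igf1 (r = 0.771), and Igf1 with Igfbp6 (r = 0.734). Igfbp2 and Igfbp6 had at most 8 reads in any Fgfr3-WT clone, so their values there rest on few reads. How much of each r comes from the split within the P28 group was not computed. Igf1r had no r above 0.45 with another member, and Igfbp4 was closest to Igfbp5 (r = 0.59). Among about 9660 other genes at or above a mean log2 CPM of 3, those most like each member by the same measure were Nfix (r = 0.949) and Zxdb (0.931) for Igf1, Mturn (0.85) and Irgq (0.848) for Igf1r, and Tfeb (0.92) and Washc3 (0.919) for Igfbp2. They were Zfp120 (0.937) and Ralgds (0.906) for Igfbp3, Btd (0.909) and Mbtps1 (0.894) for Igfbp4, and 2610002M06Rik (0.937) and Trappc2 (0.935) for Igfbp5. Ypel2 (0.895) and Rgma (0.864) were most like Igfbp6, and Dtna (0.92) and Celf2 (0.898) were most like Igfbp7. By Spearman rho, Nfix, Zfp120, Btd and Dtna stayed first. Mturn (rho 0.798) fell to place 52 for Igf1r and Rgma (rho 0.565) to place 426.5 for Igfbp6. Each clone is a library of its own and the clones of a group share genotype, age and submission; these are descriptions of likeness with no test.

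Of the other IGF ligands, receptors and binding proteins, 6 of 11 were tested, and 1 was called higher and 2 lower in all cKO against Fgfr3-WT clones, a share of 50% beside 48.8% of all genes. Igf2, the second IGF, rose (log2 fold change 2.74, SE 0.75, adjusted p = 0.00876, edgeR) from a level of at most 0.268 CPM in the Fgfr3-WT clones to 0.319 to 2.43 CPM in the cKO clones, so it remained rare. Igfals, which encodes the acid-labile subunit of the circulating IGF complex, fell by 2.66 on the log2 scale (SE 0.80, adjusted p = 0.014, edgeR), and Lrp1, an endocytic receptor that can bind IGFBP3, fell by 0.55 (SE 0.16, adjusted p = 0.0129, edgeR). Igf2r, which clears IGF2, was at -0.27 (SE 0.43, adjusted p = 0.637, edgeR) and Insr, the insulin receptor, at -0.14 (SE 0.13, adjusted p = 0.378, edgeR). The genes of this list without enough reads were Ins1, Ins2, Insrr, Igfbp1 and Igfbpl1. In P28 against Fgfr3-WT 1 gene was higher and 1 lower, in P4M against Fgfr3-WT 1 was higher and 2 lower, and between the cKO groups edgeR called none of the 6, with 1 at an unadjusted p under 0.05, 1 called by DESeq2 and 0 by limma on log2(TPM + 1).

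The proteases that cleave IGF-binding proteins and their inhibitors had 2 of 9 genes higher and 2 lower in all cKO against Fgfr3-WT clones, a share of 44.4% beside 48.8% of all genes. Stc1, a stanniocalcin that inhibits pappalysin, rose by 3.94 on the log2 scale (SE 1.13, adjusted p = 0.011, edgeR), and Plau, the urokinase gene, by 2.88 (SE 0.57, adjusted p = 0.00112, edgeR). Pappa, which encodes pappalysin, the protease of IGFBP4, fell by 1.73 (SE 0.47, adjusted p = 0.00875, edgeR). The lysosomal protease gene Ctsd fell by 1.83 (SE 0.32, adjusted p = 0.000441, edgeR). Pappa was 4.14 to 37.0 CPM in the Fgfr3-WT clones, 3.44 to 21.4 CPM in the P28 clones and 3.97 to 5.07 CPM in the P4M clones, so its groups overlapped. Stc1 was near absent in the Fgfr3-WT clones, at 0 to 1.50 CPM. It was 0.311 to 15.2 CPM in the P28 clones, which overlapped them, and 3.21 to 17.6 CPM in the P4M clones. Stc2 (-0.78, SE 0.65, adjusted p = 0.339, edgeR) and Htra1 (-0.28, SE 0.66, adjusted p = 0.749, edgeR) did not pass. In P28 against Fgfr3-WT 2 genes were higher and 1 lower, in P4M against Fgfr3-WT 2 were higher and 2 lower, and edgeR called none between the cKO groups, with 2 at an unadjusted p under 0.05, 1 called by DESeq2 and 1 by limma.

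Downstream of the receptor, 7 of 24 signalling genes were higher and 5 lower in all cKO against Fgfr3-WT clones, with a median log2 fold change of 0.26 beside -0.05 for all genes. The share called, 50%, was near the 48.8% of all genes. Irs1 and Irs2, the docking proteins of the IGF and insulin receptors, both rose. Irs1 was 22.2 to 78.2 CPM in the Fgfr3-WT clones and 96.5 to 313 CPM in the cKO clones, without overlap (log2 fold change 1.99, SE 0.40, adjusted p = 0.00125, edgeR). Irs2 was 6.91 to 16.0 CPM in the former and 22.3 to 37.0 CPM in the latter, again without overlap (1.54, SE 0.21, adjusted p = 7.7e-05, edgeR). Eif4ebp1, a repressor of translation held in check by mTOR, rose by 1.20 (SE 0.26, adjusted p = 0.00224, edgeR), and Grb14, an adaptor that dampens insulin receptor signalling, fell by 1.73 (SE 0.49, adjusted p = 0.0101, edgeR). P28 against Fgfr3-WT had 6 genes higher and 5 lower and P4M against Fgfr3-WT 8 higher and 3 lower, while edgeR called none of the 24 between the cKO groups, with 5 at an unadjusted p under 0.05, 2 called by DESeq2 and 3 by limma.

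In the growth hormone axis, 1 of 6 genes was higher and 1 lower in all cKO against Fgfr3-WT clones, 33.3% beside 48.8% of all genes. Stat5a, a transcription factor activated by the growth hormone receptor, fell by 0.98 (SE 0.18, adjusted p = 0.000625, edgeR), and the kinase gene Jak2 rose by 0.55 (SE 0.21, adjusted p = 0.0476, edgeR). Both were also called in P4M against P28, at -0.91 (adjusted p = 0.0289, edgeR) for Stat5a and 1.19 (adjusted p = 0.0157, edgeR) for Jak2. Ghr, the receptor itself, was at 0.26 (SE 0.45, adjusted p = 0.667, edgeR). None of the 6 was called in P28 against Fgfr3-WT by edgeR, with 1 at an unadjusted p under 0.05 and 0 called by DESeq2 or limma. Ghr had 123, 87.5 and 118 CPM in P28 clones 1 to 3 and 26.5 and 20.1 CPM in clones 4 and 5. That is the split seen in Igf1 and in the whole transcriptomes. The share of all genes that follow it was not computed, so the values of Ghr are a description, and a link to Igf1 was not tested.

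**Figure D4:**
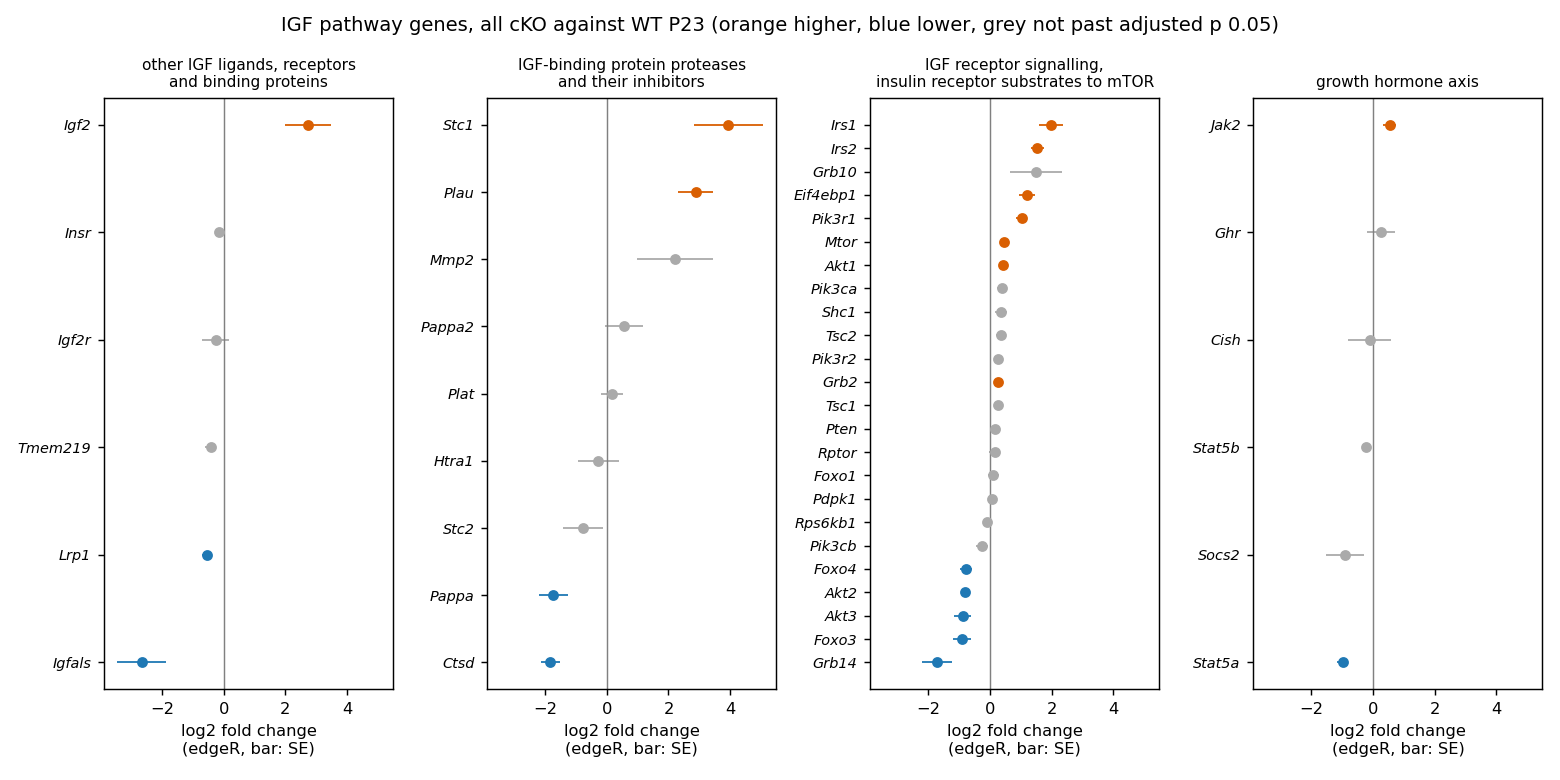
Log2 fold changes from edgeR with bars of 1 standard error are plotted for the genes of 4 IGF lists in all cKO against Fgfr3-WT clones, with orange for called higher, blue for called lower and grey for not called. The signalling list holds 7 orange and 5 blue points of 24, with Irs1 at 1.99 the highest and Grb14 at -1.73 the lowest of them.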

How the data were processed

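The authors made cDNA by SMART-Seq, which does not mark strand, sequenced 50-cycle single-end reads and, per the labels and the methods, used TopHat with Bowtie2 for alignment (mm10), HTSeq for counts of non-ambiguous reads, and DESeq2; versions are not given in the sources used here. The table of raw counts was used as deposited by the authors, without normalization. TPM values were also deposited by the authors, divided by gene length and summing to the same total in each clone, and serve here for levels between genes. Depth-normalized counts, rlog, FPKM and expected counts were not used.

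Genes were kept by filterByExpr, scaled by TMM and tested with the robust quasi-likelihood F-test of edgeR 4.0.16 (R 4.3.3), with all 14 clones in a model of 3 groups, and p-values were adjusted by the Benjamini-Hochberg method over 17358 genes at an FDR of 0.05. Standard errors are the absolute log2 fold change over the square root of F. The steps were tested on simulated data. Clones of a group differed by a chi-square per degree of freedom of at least 64.8 and were kept as separate replicates. Limits from 3 counts cover counting error only, because PCR copies of a molecule were not marked and are counted as separate reads.

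The members and gene lists were chosen with earlier results of these data known. Genes named are all members, Trp53, in each IGF list up to 4 called genes with the largest change in all cKO against Fgfr3-WT clones, with Igf2, Igf2r, Insr, Irs1, Irs2, Pappa, Stc2, Htra1 and Ghr in any case, marker genes, and the 2 genes most like each member by Pearson r of log2 CPM (prior count 2) centred within groups. Alternatives were RLE and no scaling, other filters, a minimum absolute log2 fold change of 1, no robust estimation, a fit of the compared groups, DESeq2 1.42.0, limma 3.58.1 on log2(TPM + 1), and leaving out each clone. Positions are from GENCODE M21 and promoters from RefSeq (GRCm38.p6), which held all 8 members. Figures were drawn with matplotlib 3.10.9.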

Additional observations from a re-analysis of the deposited data

Results flagged for a closer look

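In 24 groups of clones (8 members in 3 groups, on log2(CPM + 0.1)), 3 held a clone whose gap to the nearest other clone was large for the range of its group, and chance marks about 1 in 20 groups. Igf1r was 82.2 CPM in P28 clone 5, below the other 4 P28 clones (gap 0.873 of the range). Igfbp2 was 0.228 CPM in Fgfr3-WT clone 4, the only Fgfr3-WT clone with reads of it, so that the gap was the whole range (1). With the other Fgfr3-WT clones tied at no reads, any reads in a single clone give this gap. The rate of 1 in 20 does not hold for this flag, and nothing is concluded from it. Igfbp6 was 4.72 CPM in P4M clone 3, above the other 3 P4M clones (gap 0.923 of the range). Igf1 differed between the cKO clones isolated at the 2 ages, with a log2 fold change of -7.12 for P4M against P28 (SE 1.67, adjusted p = 0.0254, edgeR). All 5 P28 clones were above all 4 P4M clones.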

How the results depend on the processing

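Each result was recomputed under the alternatives. Over the members' results, 805 kept their direction and side of the threshold, 27 lost their call, 19 gained one and 24 changed sign, none of the last with a call on either side. The calls of Igf1, Igf1r, Igfbp2 and Igfbp6 in P28 against Fgfr3-WT and of Igf1r, Igfbp2 and Igfbp6 in all cKO against Fgfr3-WT held in all alternatives that tested them, except that Igf1r does not reach a log2 fold change of 1. Counts of members here are over all 8, Igfbp2 and Igfbp6 included, of which edgeR called 4 in P28, 2 in P4M and 4 in all cKO against Fgfr3-WT, 1 in P4M against P28 and 4 among the 3 groups. Of all genes it called 38.9%, 45.9%, 48.8%, 7.22% and 50.6% in the same order. Since Igfbp2 and Igfbp6 passed the filter through the cKO clones alone, a difference was built into their calls. The counts over all 8 serve only to compare settings. A filter of 10 counts in every clone dropped Igf1, Igfbp2, Igfbp3 and Igfbp6. It left 1 member called among the 3 groups, 1 each in P28 and P4M and 2 in all cKO against Fgfr3-WT, and 0 between P4M and P28. Of the 12559 genes tested with this filter, 6694, 5202, 6095, 6428 and 1014 were called in the same order. In P4M against Fgfr3-WT, 1 member was called with a minimum change of 1, 4 by DESeq2, 1 by limma and 0 to 3 without 1 clone. Of all genes, 5149 of 17358, 9336 of 22158 and 7333 of 17358 were called in the first 3 of these settings. Without 1 clone it was 6799 to 8454 genes. In P4M against P28, 2 were called in the fit of these groups only, 3 by DESeq2 and 0 to 2 without 1 clone. Of all genes, 3051 of 16672 were called in the fit of these groups only and 2814 of 19854 by DESeq2. Without 1 clone it was 480 to 2132 genes. The counts of members thus changed together with the genes tested and called, and the cause was not tested.

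The sign of a fitted log2 fold change turned for Igf1r in P4M against P28 (0.000622 without a filter, -0.129 to 0.0507 without 1 clone), for Igfbp3 in all cKO (0.16 by limma, -1.84 to 2.39 without 1 clone), P28 (-0.82 to 3.75) and P4M against Fgfr3-WT (-3.95 to 1.03), and for Igfbp4 in P4M against Fgfr3-WT (0.0084 without scaling, 0.055 without a filter, 0.87 by limma, -0.62 to 1.31 without 1 clone). It also turned for Igfbp5 in P28 against Fgfr3-WT (0.28 by limma, -2.41 to 0.049 without 1 clone) and Igfbp7 in P4M against P28 (-0.50 to 0.0195).

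Over all genes, the calls in P4M against P28 (1254, 580 of them higher) became 3051 in the fit of these groups only, 2814 by DESeq2, 480 to 2132 without 1 clone, 1205 (400 higher) without scaling and 1570 (376 higher) by limma. With a minimum change of 1, the calls fell from 6750 to 4040 in P28, from 7969 to 5149 in P4M and from 8467 to 4723 in all cKO against Fgfr3-WT. By limma on TPM, 5141 of 7079 calls in P28 and 5266 of 8184 in all cKO against Fgfr3-WT were higher, against 3336 of 6750 and 4014 of 8467 by edgeR, and the median of all genes shifted by 0.22, 0.11, 0.18 and -0.13 in P28, P4M, all cKO against Fgfr3-WT and P4M against P28. The fit of the compared groups only was not run for all cKO against Fgfr3-WT or for the 3 groups, which use all clones. No paired analysis was possible because the labels give no replicate numbers that link clones of different groups. At depths of 25688946 to 52857424 counts, the members near 0 in Fgfr3-WT clones rest on 8 reads or fewer per clone.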
